A study of Mus musculus with 8 samples.

Results

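Cardiac mesenchymal stromal cells (cMSCs) of young and aged mice were compared for the genes of the semaphorin, ephrin, Slit and netrin guidance systems. The genes were found by their names on the array: semaphorins of classes 3 to 7, plexins, neuropilins, Eph receptors, ephrins, Slits, Robos, netrins, Unc5 receptors, Dcc, Neo1 and Dscam. The names took in 183 of 56605 probes, for 75 gene names, and 62 of these genes could be tested among 20226 genes in all. cMSCs are fibroblast-like stromal cells obtained by enzymatic digestion of the ventricles. They were sorted as positive for Sca-1 and PDGFRα and negative for CD31 (endothelial cells) and CD45 (leukocytes). The labels give all mice as male and of the strain C57Bl/6. The young group held 4 pools from mice aged 5 months (replicates 2, 3, 4 and 5) and the aged group 4 pools from mice aged 20 months (replicates 1, 2, 3 and 4), and no treatment is given for either. The series design gives 3 mice for each pool, although the label of aged replicate 4 may stand for 2 mice, so the spread is that between pools and not between mice. The study's methods name C57Bl/6JRj mice and a C57BL/6 reporter line, heterozygous for CX3CR1gfp/+ and carrying CD45.1, and do not say which of the 2 gave these pools.

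Guidance molecules were first known as cues that attract or repel growing axons, and vessels, fibroblasts and the developing heart use the same molecules. Semaphorins signal through plexins, and secreted class 3 semaphorins mostly need a neuropilin as a co-receptor. Ephrins are bound to the membrane and signal by cell contact to Eph receptor tyrosine kinases, often with a signal back into the cell that carries the ephrin. Slits are secreted ligands of Robo receptors, and netrins act through Dcc, Neo1 and Unc5 receptors, with Dscam as a further netrin receptor. Netrin-G proteins, in spite of their name, are tethered to the membrane and do not use Dcc.

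Each pool was measured on its own 1-colour Agilent mouse array. A level is given as log2 of the processed signal minus that of the array's 75th percentile, so 0 is the signal at that percentile, and a difference is the mean of aged pools minus the mean of young pools on this scale. Levels of different genes come from different probes and were not compared with each other. A gene was tested when a probe gave signal well above background in all pools of the young group, of the aged group or of both, and its brightest such probe stood for it. Of the arrays' spots, 57.7% to 63.3% were well above background, and none was saturated. Each pool correlated with the other pools of its group at r of 0.988 to 0.995 over all genes tested, each at its brightest probe. Young replicate 5 stood somewhat apart, with r of 0.988 to 0.989 against every other young pool. Genes are said to have risen or fallen when the p of limma was under 0.05 after Benjamini-Hochberg adjustment for the 20226 genes tested. In bulk RNA of sorted cells, fewer cells of a type and less RNA per cell cannot be told apart.

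Of the 62 guidance genes tested, 6 fell in aged cMSCs and none rose (limma, adjusted p under 0.05). The 6 were the semaphorins Sema4d, Sema5a and Sema3d, the Eph receptor Epha4, the netrin-G gene Ntng1 and the netrin receptor gene Dscam. Over all genes tested, 0.801% fell, 2.37% rose and 3.17% did either. Ntng1 and Dscam were tested only through their signal in young pools, so for them a fall was the likelier call, and they lend the count no support. With signal required on all 8 arrays, 60 guidance genes were tested and the other 4 fell, against 0.782% of all genes. On leaving out 1 pool the number that fell was 2 to 5 (2 without young replicate 2, young replicate 4 or aged replicate 2). Without a filter on dim probes it was 2, and with a block for the pool number it was 0. Of all genes, 0.336% to 0.791% fell on leaving out 1 pool, 0.121% without that filter and 0.00989% with that block. In that block young replicate 5 and aged replicate 1 have no partner of their number, so they do not enter the difference. Sema4d and Sema5a passed whichever pool was left out. At an unadjusted p under 0.05, 13 guidance genes were lower (21.0%, against 5.66% of all genes) and 6 higher (9.68%, against 8.5%). With the thresholds that the study used, p under 0.01 without adjustment and a log2 difference over 0.5, again 6 guidance genes were lower and none was higher, with the plexin gene Plxnb3 in and Sema3d out, and Ntng1 and Dscam again among them. Under those thresholds 1.26% of all genes were lower and 3.22% higher. The guidance genes had been taken up with earlier results of these data known, so these shares describe them and are no independent test.

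Over all 62 guidance genes the differences were small and leaned to lower levels in aged pools. Their median difference was -0.091, against 0.0014 over all genes, and 38 of the 62 (61.3%) had a negative difference, against 49.6% of all genes. The median absolute difference was 0.18, against 0.11 over all genes. All aged pools lay below all young pools for 10 guidance genes, Ntng1 and Dscam among them, and above them for 3. Over all genes tested, 4.05% had aged pools below and 6.67% above all young pools. The 3 were the receptor Epha2 and the ephrins Efna1 and Efna5. Their differences were 0.49, 0.26 and 0.14, with adjusted p of 0.114, 0.213 and 0.388 from limma, so none passed.

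**Figure D1:**
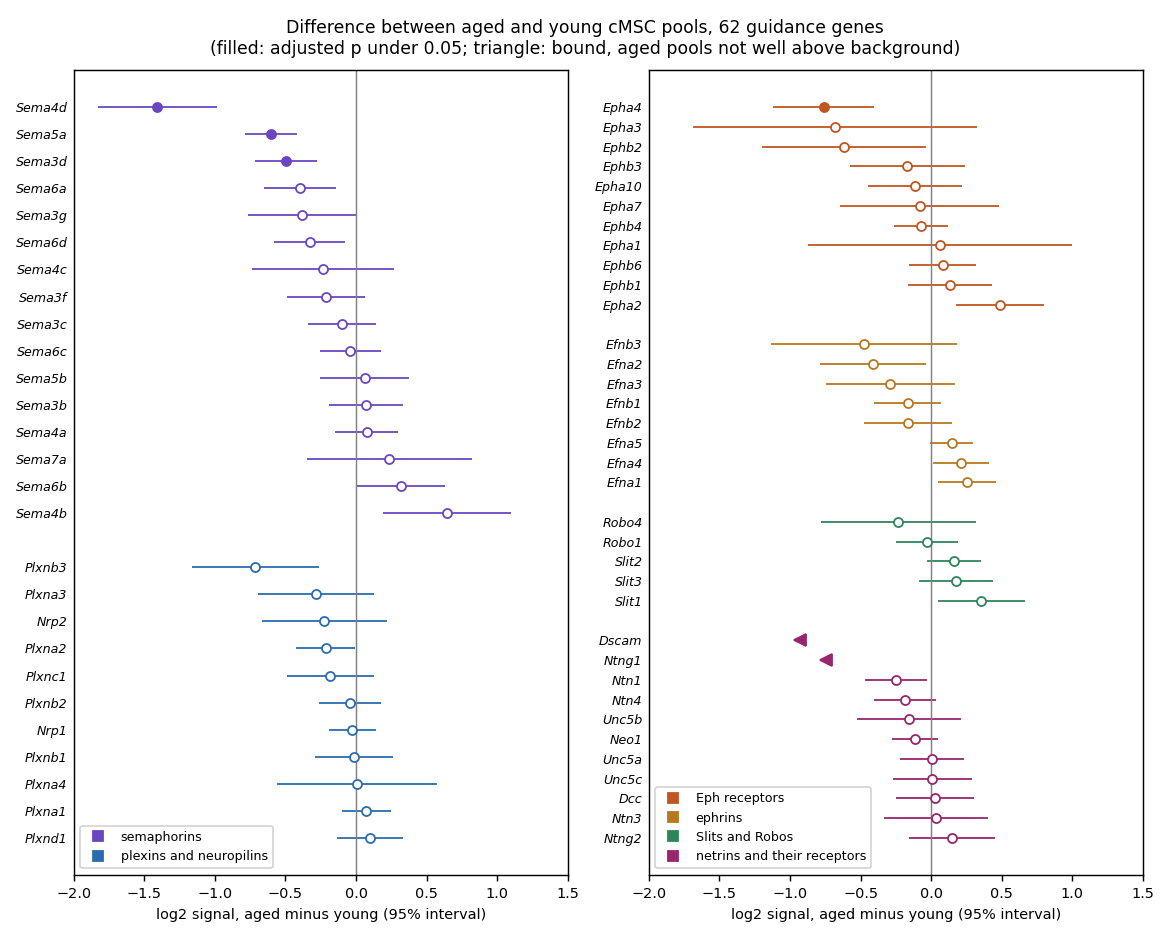
Difference in log2 signal between aged and young pools (aged minus young, horizontal axis) for the 62 guidance genes tested, 1 row per gene, by family, with bars for the 95% interval from limma. Filled points passed an adjusted p under 0.05: Sema4d at -1.41, Sema5a at -0.60, Sema3d at -0.50 and Epha4 at -0.76. Filled triangles mark Dscam and Ntng1, which passed too but were not well above background in aged pools, at their bounds of at least 1.90-fold and 1.67-fold lower, with no interval.

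Semaphorins held the most calls of the 6 families and were also the family with the most genes tested. The share called was 18.8%, against 18.2% of netrins and their receptors and 3.17% of all genes. The netrin calls were Ntng1 and Dscam, tested only through their signal in young pools, and they lend that share no support. Of 16 tested, Sema4d, Sema5a and Sema3d fell and none rose, and the family's median difference was -0.16. Sema4d encodes a membrane-bound semaphorin and ligand of the B plexins, known from T cells, bone and vessels. Its level was -2.53, -2.04, -2.53 and -2.59 in young replicates 2 to 5 and -3.83, -3.43, -3.82 and -4.23 in aged replicates 1 to 4. No aged pool reached the lowest young pool, and young replicate 3 was the highest of its group. The difference was -1.41 (standard error 0.185, adjusted p = 0.00584 from limma), or 2.65-fold lower. The probe sits at 51796617 to 51796676 on chromosome 13 (mm9), and a further probe from 51780903 to 51780962 had a difference of -1.36. The size of the Sema4d difference depended on the background: it was -0.78 after normexp background correction, still with an adjusted p of 0.00438. The 2 probes of Sema4d that fell together begin with these 30 of their 60 bases, read from the array files.
Sema4d, brightest probe: tttctacttggaactgtacacatttgaaaa
Sema4d, further probe: tgccaaacaggccaattatgcaaaccttca

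Sema5a encodes a transmembrane semaphorin with thrombospondin repeats that can bind plexin B3. Its level was 2.60, 2.50, 2.54 and 2.44 in young replicates 2 to 5 and 1.90, 2.03, 1.79 and 1.95 in aged replicates 1 to 4. The groups were far apart for their narrow spread, with an SD of 0.07 among young and 0.10 among aged pools. The difference was -0.60 (standard error 0.0805, adjusted p = 0.00626 from limma), or 1.52-fold lower, at a probe on chromosome 15 from 32626025 to 32626084 of mm9. Sema3d encodes a secreted class 3 semaphorin that guides endothelial and neural crest cells in the developing heart. Its level was 0.98, 0.93, 0.96 and 1.09 in young replicates 2 to 5 and 0.71, 0.49, 0.30 and 0.47 in aged replicates 1 to 4. No aged pool reached a young pool, and the difference was -0.50 (standard error 0.0974, adjusted p = 0.0329 from limma), or 1.41-fold lower, on chromosome 5 from 12588784 to 12588843. Leaving out any pool but aged replicate 1 ended the call of Sema3d, with adjusted p of 0.0742 to 0.0884 and differences of -0.52 to -0.43, and scaling to the median gave an adjusted p of 0.0591.

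The other semaphorins did not pass. Sema4b, a membrane-bound class 4 semaphorin, had the largest positive difference of the 62 genes, 0.64 (standard error 0.199, adjusted p = 0.15 from limma). Its level was -3.13, -3.46, -3.12 and -2.99 in young replicates 2 to 5 and -2.44, -3.06, -2.08 and -2.54 in aged replicates 1 to 4. Aged replicate 2 lay among the young pools and the other aged pools lay above them. Without aged replicate 2 the difference was 0.82 and passed (adjusted p = 0.0388). Class 6 semaphorins, which are transmembrane ligands of the A plexins, had differences of -0.40 for Sema6a, 0.32 for Sema6b, -0.04 for Sema6c and -0.33 for Sema6d, with adjusted p of 0.114 to 0.923. The secreted Sema3b, Sema3c, Sema3f and Sema3g had differences of -0.38 to 0.07. Sema4a, Sema4c, Sema5b and Sema7a had differences of -0.23 to 0.24. Sema3a, Sema3e, Sema4f and Sema4g were not tested, and Sema3a and Sema4f were well above background on no array.

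**Figure D2:**
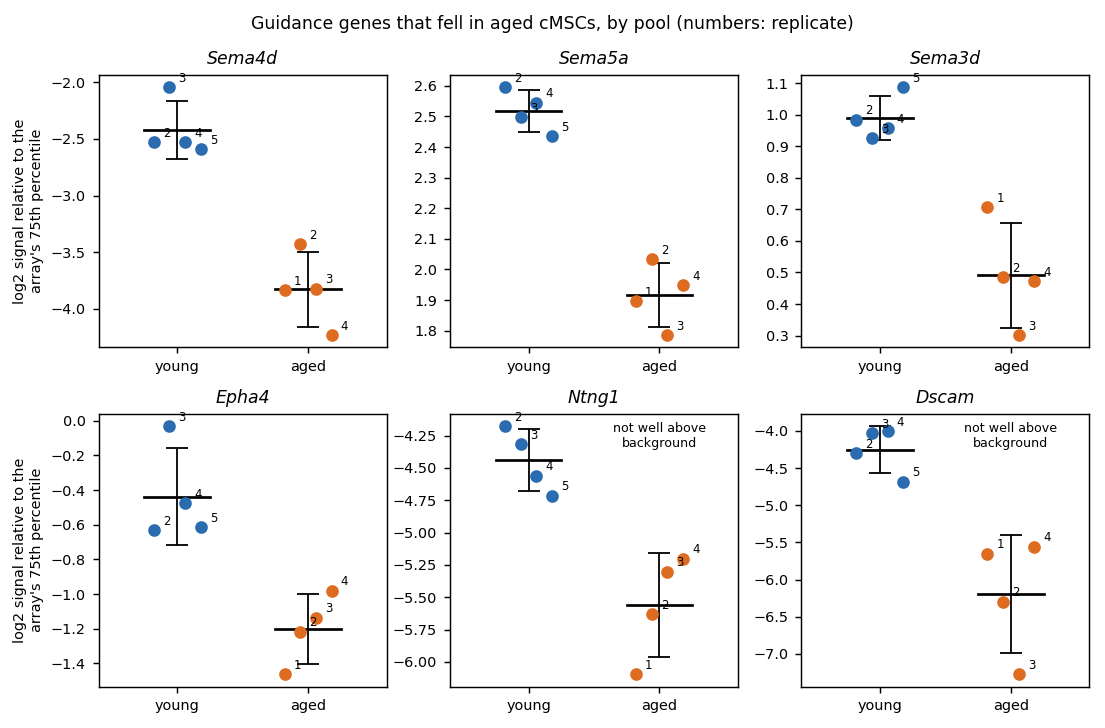
Level (log2 signal against the array's 75th percentile) of the 6 guidance genes that fell, with 1 point per pool, young in blue and aged in orange, numbered by replicate, with the mean as a bar and 1 SD as whiskers; each panel has its own vertical axis. In every panel all aged pools lie below all young pools, and for Ntng1 and Dscam the aged pools were not well above background.

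The receptors of semaphorins showed no call. All 11 plexin and neuropilin genes were tested and none rose or fell (limma, with 2 lower and none higher at an unadjusted p under 0.05). Their median difference was -0.04. Plxnb3 encodes plexin B3, a receptor of Sema5a. Its level was -3.34, -2.49, -3.34 and -3.41 in young replicates 2 to 5 and -3.80, -3.96, -3.85 and -3.83 in aged replicates 1 to 4. The groups did not overlap, young replicate 3 was far above the rest of its group, and the difference was -0.71 (standard error 0.197, adjusted p = 0.106 from limma). Without young replicate 3 it was smaller, -0.50, and passed (adjusted p = 0.0283), and with normexp background correction it was -0.32. Plxna3, a receptor of class 3 semaphorins on neuropilins, had levels of 0.19, 0.05, 0.07 and -0.32 in young and -0.10, -0.14, -0.12 and -0.80 in aged pools, in the same order of replicates. The groups overlapped, and the difference was -0.28 (adjusted p = 0.587). Nrp2, a co-receptor for class 3 semaphorins and for vascular endothelial growth factors, had levels of 3.04, 3.16, 2.84 and 3.80 in young and 2.88, 2.85, 3.05 and 3.17 in aged pools. Young replicate 5 stood above all others, and the difference was -0.22 (adjusted p = 0.733). For Nrp1, the other neuropilin, the difference at its brightest probe was -0.03 with a 95% interval of -0.19 to 0.14. A further kept probe of Nrp1 had a difference of 0.44 (adjusted p = 0.094 over probes from limma), with all aged pools above all young ones. At other kept probes of Nrp1 the groups overlapped, with differences such as 0.09 and 0.25. Plxnb1 and Plxnb2, the main Sema4d receptors, had differences of -0.01 (-0.29 to 0.26) and -0.04 (-0.27 to 0.18). For Plxnd1, which serves as a receptor of class 3 semaphorins in vessels, the value was 0.10 (-0.14 to 0.33). The remaining members, Plxna1, Plxna2, Plxna4 and Plxnc1, had differences of -0.21 to 0.07.

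Among Eph receptors, Epha4 fell and none of the 11 tested rose. Epha4 is a receptor that binds ephrins of both classes. Its level was -0.63, -0.03, -0.47 and -0.61 in young replicates 2 to 5 and -1.46, -1.22, -1.14 and -0.98 in aged replicates 1 to 4. All aged pools were below all young pools, with young replicate 3 the highest. The difference was -0.76 (standard error 0.157, adjusted p = 0.0400 from limma), or 1.70-fold lower, at its only probe, on chromosome 1 from 77370232 to 77370291 of mm9. The call was close to the threshold: leaving out any of the 8 pools gave adjusted p of 0.0503 to 0.0996 with differences of -0.83 to -0.63, and a block for the slide row gave 0.0584.

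No other Eph receptor passed. Epha3, which prefers ephrin-A5, had levels of -3.38, -3.10, -3.45 and -1.31 in young and -3.35, -3.77, -3.58 and -3.25 in aged pools, in the order of replicates above. Its difference of -0.68 (standard error 0.44, adjusted p = 0.593) came with 1 pool far from the rest: without young replicate 5 it was -0.18. At a further kept probe of Epha3 young replicate 5 lay within the young range and all aged pools lay below all young ones. The difference there was -0.77 (adjusted p = 0.171 over probes from limma). Ephb2, which binds B ephrins, had levels of 0.15, -0.02, -0.04 and -0.08 in young and -0.19, -0.08, -0.88 and -1.31 in aged pools. The young pools were close together, aged replicates 3 and 4 lay well below them and aged replicates 1 and 2 just below, and the difference was -0.62 (standard error 0.254, adjusted p = 0.315). Epha2, the receptor with the only positive separation, had levels of -1.58, -1.32, -1.21 and -1.70 in young and -1.03, -0.82, -1.19 and -0.81 in aged pools. Ephb4, the receptor of the venous endothelium, had a difference of -0.07 with a 95% interval of -0.26 to 0.12. Epha1, Epha7, Epha10, Ephb1, Ephb3 and Ephb6 had differences of -0.17 to 0.14 at their brightest probes. Epha5, Epha6 and Epha8 were not tested, and Epha8 was well above background on no array.

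The ligands of these receptors, the 8 ephrins, were all tested and none passed limma's adjusted threshold (2 higher and 1 lower at an unadjusted p under 0.05), with a median difference of -0.16. Efnb3, a transmembrane ephrin, had levels of -3.11, -3.44, -3.33 and -3.91 in young and -4.22, -3.05, -4.22 and -4.22 in aged pools. Aged replicate 2 was the highest of all 8 pools while the other aged pools were the lowest 3, and the difference was -0.48 (standard error 0.289, adjusted p = 0.555). Efna2, a lipid-anchored A ephrin, had levels of -2.23, -1.90, -2.20 and -1.96 in young and -2.76, -2.52, -2.64 and -2.03 in aged pools. Aged replicate 4 lay within the young range, and the difference was -0.41 (standard error 0.164, adjusted p = 0.294). Efna3, of the same class, had levels of -2.54, -2.20, -2.84 and -2.91 in young and -3.32, -2.64, -3.004 and -2.67 in aged pools, which overlapped, with a difference of -0.29 (adjusted p = 0.638). Efna1 and Efna5, also A ephrins, were the ligands whose aged pools all lay above the young ones. Efna1 was at 0.99, 0.63, 0.74 and 0.71 in young and at 1.04, 1.02, 1.01 and 1.02 in aged pools, and Efna5 at 2.23, 2.30, 2.21 and 2.34 in young and at 2.42, 2.38, 2.42 and 2.43 in aged pools. Efnb2, the ephrin of arterial endothelium and ligand of Ephb4, had a difference of -0.16 with a 95% interval of -0.47 to 0.15.

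Slits and Robos showed no call by limma among 5 tested (1 higher and none lower at an unadjusted p under 0.05), with a median difference of 0.16. The differences of the 3 Slits were 0.16 to 0.36. Slit1, best known in the nervous system, had levels of -4.62, -4.28, -4.59 and -4.33 in young and -3.86, -4.41, -4.04 and -4.07 in aged pools. Aged replicate 2 lay within the young range, and the difference was 0.36 (standard error 0.135, adjusted p = 0.262), which shrank to 0.10 with normexp background correction. Slit3, the Slit of stromal and vascular cells, had levels of 2.63, 2.68, 2.35 and 2.59 in young and 2.76, 2.64, 2.58 and 2.99 in aged pools, with a difference of 0.18 (adjusted p = 0.589). Slit2 had a difference of 0.16 (95% interval -0.03 to 0.36). Robo4, a Robo of endothelial cells, had levels of 0.78, 0.60, 0.90 and 0.22 in young and -0.21, 0.93, 0.39 and 0.47 in aged pools. The aged pools spanned the young ones, and the difference was -0.23 (adjusted p = 0.789). Robo1, the widely expressed Slit receptor, had a difference of -0.03 with a 95% interval of -0.25 to 0.19. Robo2 and Robo3 were not tested, and Robo3 was well above background on no array.

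In the netrin group the calls among 11 genes tested were Ntng1 and Dscam, both well above background on all 4 young and on no aged array. None of the other netrin genes passed. Ntng1 encodes netrin-G1, a membrane-anchored adhesion protein of axons. Its level was -4.18, -4.31, -4.56 and -4.71 in young replicates 2 to 5 and -6.10, -5.63, -5.30 and -5.20 in aged replicates 1 to 4. It was at least 1.67-fold lower in aged pools, taken against the lowest signal well above background on each array, and the adjusted p from limma on the measured signals was 0.0256. Dscam encodes a cell adhesion molecule of the immunoglobulin superfamily. Its level was -4.30, -4.03, -4.01 and -4.68 in young replicates 2 to 5 and -5.65, -6.30, -7.27 and -5.56 in aged replicates 1 to 4, at least 1.90-fold lower, with an adjusted p of 0.0269. The aged levels of both genes lie at or under the background and have no order among themselves. The Ntng1 probe lies on chromosome 3 from 109946348 to 109946407 and the Dscam probe on chromosome 16 from 96814646 to 96814705 of mm9. The other probes of both genes were well above background on no array. Both calls were lost with normexp background correction, with adjusted p of 0.549 and 0.110, and on leaving out young replicates 2, 3 or 4 or aged replicate 2, with adjusted p of 0.0614 to 0.0854.

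Secreted netrins and the netrin receptors did not pass. Ntn1, the classical secreted netrin, had levels of 2.60, 2.63, 2.57 and 2.95 in young and 2.48, 2.42, 2.42 and 2.43 in aged pools. All aged pools were below all young pools, with young replicate 5 apart, and the difference was -0.25 (standard error 0.0968, adjusted p = 0.276). Ntn4, a netrin of basement membranes, had a difference of -0.18, and Ntn3 and Ntng2 had 0.04 and 0.15. The receptor Neo1 had a difference of -0.11 (95% interval -0.27 to 0.05), and the repulsive receptors Unc5a, Unc5b and Unc5c had 0.01, -0.16 and 0.01. The value named Dcc, 0.03, comes from a probe that the array file places on chromosome 7 from 68417162 to 68417221, while the 5 other Dcc probes lie on chromosome 18 and were not kept, so this value is uncertain as to the gene. Ntn5 and Unc5d were well above background on no array. The names also took in 2 antisense transcripts of Plxna4, Plxna4os1 and Plxna4os2, again above background on no array.

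By role, 4 of 32 ligands tested fell and 2 of 30 receptors did, against 0.801% of all genes, and Ntng1 among the ligands and Dscam among the receptors were tested only through the young pools. The median difference was -0.13 over the ligands and -0.08 over the receptors.

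**Figure D3:**
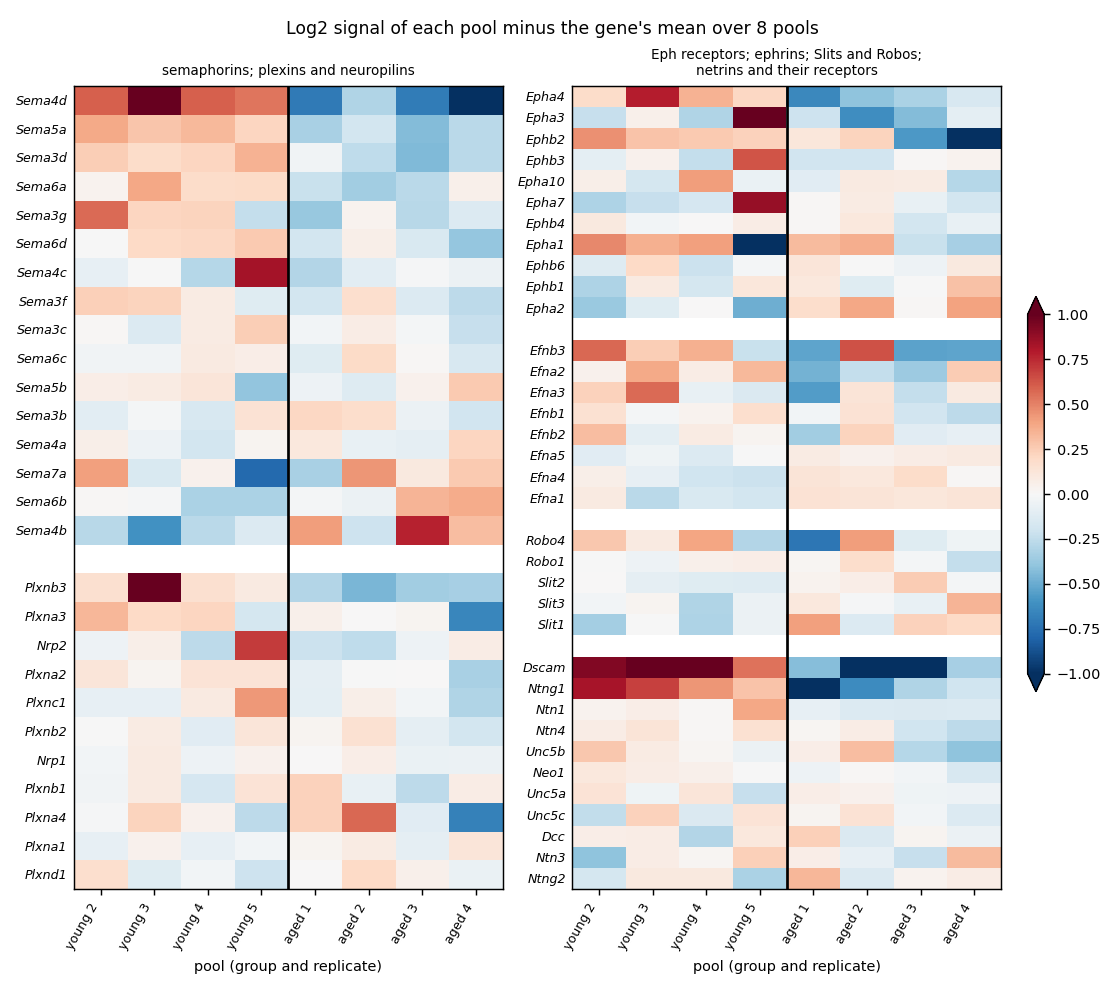
Level of each pool minus the mean of its gene over the 8 pools (log2, red above and blue below the mean, colours ending at 1) for the 62 guidance genes tested, in rows by family and in columns by pool, with a line between young and aged pools. Sema4d, Sema5a, Sema3d, Epha4, Ntng1 and Dscam are red in all young and blue in all aged pools, palest in aged replicate 1 of Sema3d, and single deep cells such as young replicate 5 of Epha3 and Epha7 show where 1 pool stood apart.

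Several genes had more than 1 kept probe, and for some of them the probes did not move together. These genes were picked out after their values were seen, so the values are a description. Over all 101 kept probes of guidance genes, adjusted over 30824 probes, 9 fell and none rose, the Ntng1 and Dscam probes among the 9. Of all 30824 kept probes, 0.62% fell and 1.91% rose. Probes that fell beside those of the 6 genes were 1 of Epha7 and 1 of Sema6a. The parts of the transcripts that the probes read are shown by their first 30 of 60 bases from the array files, in the order of their positions on mm9, since the differences below belong to these stretches.
Epha7, probe 1, chromosome 4, 28748230 to 28748289: aacaactggctgcggactaactggatttct
Epha7, probe 2 (brightest), 28869764 to 28869823: tgtcatcataattgctgtagtggctgtagc
Epha7, probe 3, 28891069 to 28891128: tggccatcaaaagaagatcatgagcagcat
Nrp2, probe 1, chromosome 1, 62818403 to 62829910: tgacagaacatttccagatgacaagaactt
Nrp2, probe 2 (brightest), 62843061 to 62843120: tacacagtacactcccatgtgaagaggtgt
Nrp2, probe 3, 62865129 to 62865188: tgagccagatcacgggaactcgagagcttt
Sema5a, probe 1, chromosome 15, 32200547 to 32200606: gctatcctctgagcttcaattcttgtcccc
Sema5a, probe 2, 32493248 to 32493307: ggtggtggtggtgggttttttgtagaagag
Sema5a, probe 3, 32619122 to 32619181: ctattccaacgcctactttacagatctcaa
Sema5a, probe 4 (brightest), 32626025 to 32626084: gttttgtgtaaatagtttgccttgttcagt

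Epha7 encodes a receptor of A ephrins with a full-length and a shorter form. At its probe 2, shown above, young replicate 5 was at 0.99 and the other young pools at -0.19 to -0.05, with aged pools at -0.06 to 0.20 and a difference of -0.08. At probe 3 the levels were -2.17, -2.24, -2.32 and -1.99 in young and -3.001, -3.15, -3.52 and -2.90 in aged pools. There the groups were well apart, with a difference of -0.97 (standard error 0.143, adjusted p = 0.0109 over probes from limma). Probe 1 had a difference of -0.70 (adjusted p = 0.0737), with all aged pools below all young ones.

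For Nrp2 the brightest probe had a difference of -0.22, while probe 3 had 0.42 (standard error 0.107, adjusted p = 0.0889 over probes). At probe 3 the levels were 2.21, 2.15, 2.43 and 2.11 in young and 2.52, 2.60, 2.62 and 2.86 in aged pools, so that all aged pools lay above all young ones. Neuropilin 2 is made in several splice forms with different ends. Probe 1 of Nrp2 had a difference of 0.24 (adjusted p = 0.687). The direction of Nrp2 thus differed between its probes, and none of the 3 passed.

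The probes of Sema5a fell into a pair with negative and a pair with positive differences. Probes 3 and 4, designed on its reference mRNA, had differences of -0.73 and -0.60, and all aged pools lay below all young ones at both. Probes 1 and 2, designed on other cDNA clones that the array assigns to the gene, had 0.06 and 0.19, with overlapping groups. The mean of all 4 probes had a difference of -0.27 and did not pass (adjusted p = 0.351). For Sema6a, the brightest and the further kept probe had differences of -0.40 and -0.44, and the latter passed over probes (adjusted p = 0.0382).

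**Figure D4:**
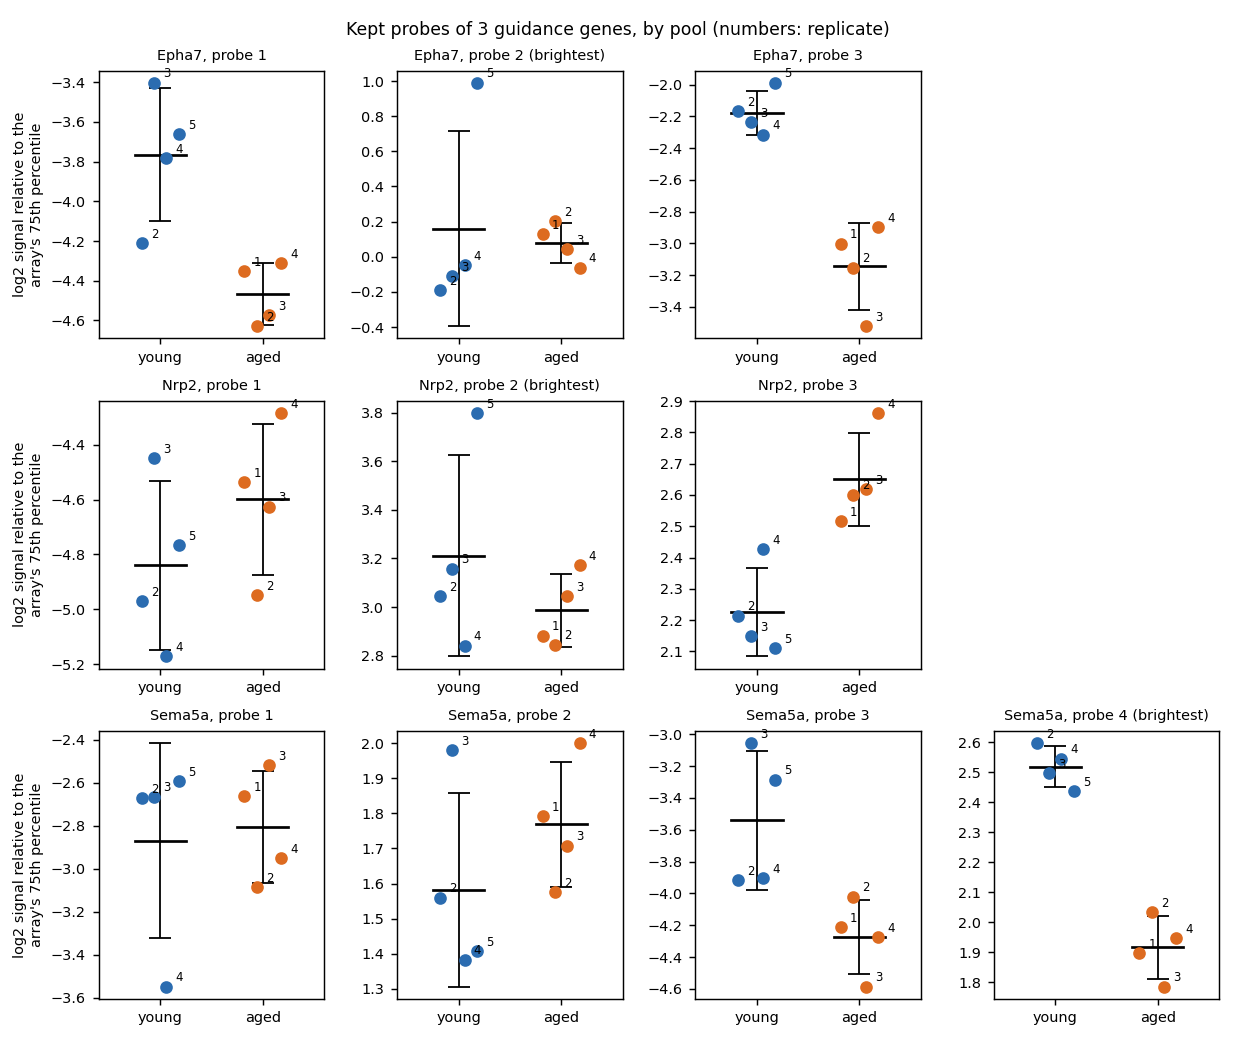
Level (log2 signal against the array's 75th percentile) at each kept probe of Epha7, Nrp2 and Sema5a, from the first to the last probe along the chromosome, with 1 point per pool, young in blue and aged in orange, numbered by replicate, with the mean as a bar and 1 SD as whiskers; each panel has its own vertical axis. The groups separate at probes 1 and 3 of Epha7, probe 3 of Nrp2 and probes 3 and 4 of Sema5a, and overlap at the other probes.

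Start site sequence was available for part of the genes. In RefSeq's promoter windows on GRCm38.p6, from 250 bases before to 50 after each listed start, 53 of the 62 tested guidance genes had 67 windows among 32851 in all. The windows of guidance genes were richer in CpG than most, with a median of 22 CpG dinucleotides against 7 over all windows. A GC box (GGGCGG on either strand) stood in 73.1% of the guidance windows and in 35.7% of all windows. A TATA box (TATAAA) stood in 2.99% against 13.6%, a CCAAT box (CCAAT) in 29.9% against 37.4%, an E-box (CACGTG) in 2.99% against 7.15%, an AP-1 motif (TGANTCA) in 4.48% against 7.81% and a TEAD motif (GGAATG) in 13.4% against 14.7%, each searched on both strands. These are descriptions of the letters in the windows, and windows of 1 gene can overlap. Shown are the windows of Sema5a, Epha4 and Sema3d, the genes that fell with signal above background in both groups and a single listed start, read 5′ to 3′ on the strand of the gene, with matches to these motifs in capitals. The window of Sema5a, chr15:32244563-32244862 on the plus strand, holds 23 CpG and 5 GC box matches, 3 of them in 1 unbroken run. The window of Epha4, chr1:77515039-77515338 on the minus strand, holds 17 CpG, 1 GC box and 1 CCAAT box. The window of Sema3d, chr5:12382916-12383215 on the plus strand, holds 8 CpG and 1 CCAAT box.
Sema5a: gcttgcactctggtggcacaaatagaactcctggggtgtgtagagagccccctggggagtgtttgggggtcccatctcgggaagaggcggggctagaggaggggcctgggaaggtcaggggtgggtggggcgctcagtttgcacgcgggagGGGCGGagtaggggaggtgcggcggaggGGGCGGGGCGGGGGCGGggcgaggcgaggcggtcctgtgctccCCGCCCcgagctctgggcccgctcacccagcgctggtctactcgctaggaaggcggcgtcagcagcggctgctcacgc
Epha4: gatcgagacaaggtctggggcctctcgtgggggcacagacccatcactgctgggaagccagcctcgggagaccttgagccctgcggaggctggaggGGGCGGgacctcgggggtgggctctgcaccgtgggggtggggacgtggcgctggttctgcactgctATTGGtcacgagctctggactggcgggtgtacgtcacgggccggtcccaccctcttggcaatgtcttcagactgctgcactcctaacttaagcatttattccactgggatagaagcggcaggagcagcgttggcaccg
Sema3d: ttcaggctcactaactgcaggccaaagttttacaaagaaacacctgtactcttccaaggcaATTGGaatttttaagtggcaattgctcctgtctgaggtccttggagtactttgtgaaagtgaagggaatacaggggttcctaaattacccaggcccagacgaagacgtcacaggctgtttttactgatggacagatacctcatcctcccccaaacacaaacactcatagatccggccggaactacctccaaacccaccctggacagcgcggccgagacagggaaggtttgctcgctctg

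Genes that act downstream of these receptors were called about as often as all genes. Over the 3 lists of such genes, 108 genes were tested and 3 (2.78%) were called, against 3.17% of all genes. Of 33 genes of semaphorin, plexin and neuropilin signalling that were tested, Rhod, a small GTPase of endosomes and plexin signalling, rose by 0.71 (adjusted p = 0.00741) and none fell. Of 36 genes of Eph and ephrin signalling none rose or fell (limma, with 3 higher and 2 lower at an unadjusted p under 0.05), and the largest differences were 0.53 for Anks1b, an adaptor protein of the Anks family, and 0.43 for Mmp14, a membrane protease, with adjusted p of 0.313 and 0.0741. Of 39 genes of Slit, Robo, netrin and Dcc signalling, Evl fell by 1.90 (adjusted p = 5.21e-05) and Pak1 rose by 0.49 (adjusted p = 0.0155). Evl encodes an Ena/VASP protein that lengthens actin filaments downstream of Robo and netrin receptors, and Pak1 a kinase activated by Rac and Cdc42. The medians of these 3 lists were 0.0068, -0.026 and 0.0011.

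A list of 37 other guidance cues and receptors tested held 4 calls, 1 higher and 3 lower, against 2.37% and 0.801% of all genes. Nfasc, the neural adhesion molecule neurofascin, rose by 1.55 (standard error 0.291, adjusted p = 0.0276 from limma). Ngfr, the low-affinity neurotrophin receptor p75, fell by 0.87 (adjusted p = 0.0388), Nrcam, an adhesion molecule that binds neuropilin 2, fell by 0.80 (adjusted p = 0.0471), and Adgrl3, the adhesion receptor latrophilin 3, fell by 0.54 (adjusted p = 0.0412). Their median was -0.04. These lists, too, were written with earlier results of these data known.

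Markers of the sorted cells and of other cells were read in the same pools, as sums of linear signal divided by the array's 75th percentile. All 13 cMSC identity markers were well above background in every pool and summed to 1215 to 1712 in young and 1217 to 1524 in aged pools, with Thy1 alone called, as it fell by 0.71 (adjusted p = 0.0476). The 12 endothelial markers had no call and summed to 15.8 to 20.9 in young and 14.8 to 23.3 in aged pools. Macrophage markers (11, 1 rose) summed to 26.3 to 38.7 and 32.3 to 48.1, T and B cell markers (5, 1 rose) to 1.47 to 2.24 and 1.75 to 2.05, and mural markers (10, none called) to 37.3 to 45.3 and 34.3 to 37.8. Sums did not overlap for 5 lists. Aged pools were higher for Schwann and glial markers (5 tested, 1 rose, 2.41 to 2.74 against 3.58 to 4.20), neuron markers (6, 1 rose, 28.8 to 37.0 against 37.5 to 48.2), neutrophil markers (6, 3 rose, 1.91 to 2.71 against 3.65 to 10.5) and mesothelial markers (4, 1 rose, 0.310 to 0.502 against 1.14 to 1.66). They were lower for cardiomyocyte markers (11, 2 fell, 11.2 to 13.8 against 6.36 to 10.96). The mesothelial sum rested mostly on Dmkn, which rose by 3.98 (adjusted p = 6.33e-05), while Wt1, Msln and Krt18 had differences of 0.75, -0.63 and -0.25 and did not pass. Among glial markers Mbp rose by 1.71 and the other 4 tested had differences of -0.17 to 0.36, and among neutrophil markers S100a9 rose by 4.32, Ly6g by 0.74 and Camp by 0.70. The glial markers Sox10, Foxd3 and Gfap were among those not tested for lack of signal. The part of these cells in the guidance gene differences was not tested.

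The arrays lay in 2 rows of 1 slide, each with 2 young and 2 aged pools. Within the rows, differences were -1.72 and -1.10 for Sema4d, -0.54 and -0.66 for Sema5a, -0.42 and -0.58 for Sema3d and -0.90 and -0.62 for Epha4, so these 4 were lower in aged pools within both rows. For Ntng1 and Dscam no size is given, since no aged array was well above background.

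**Figure D5:**
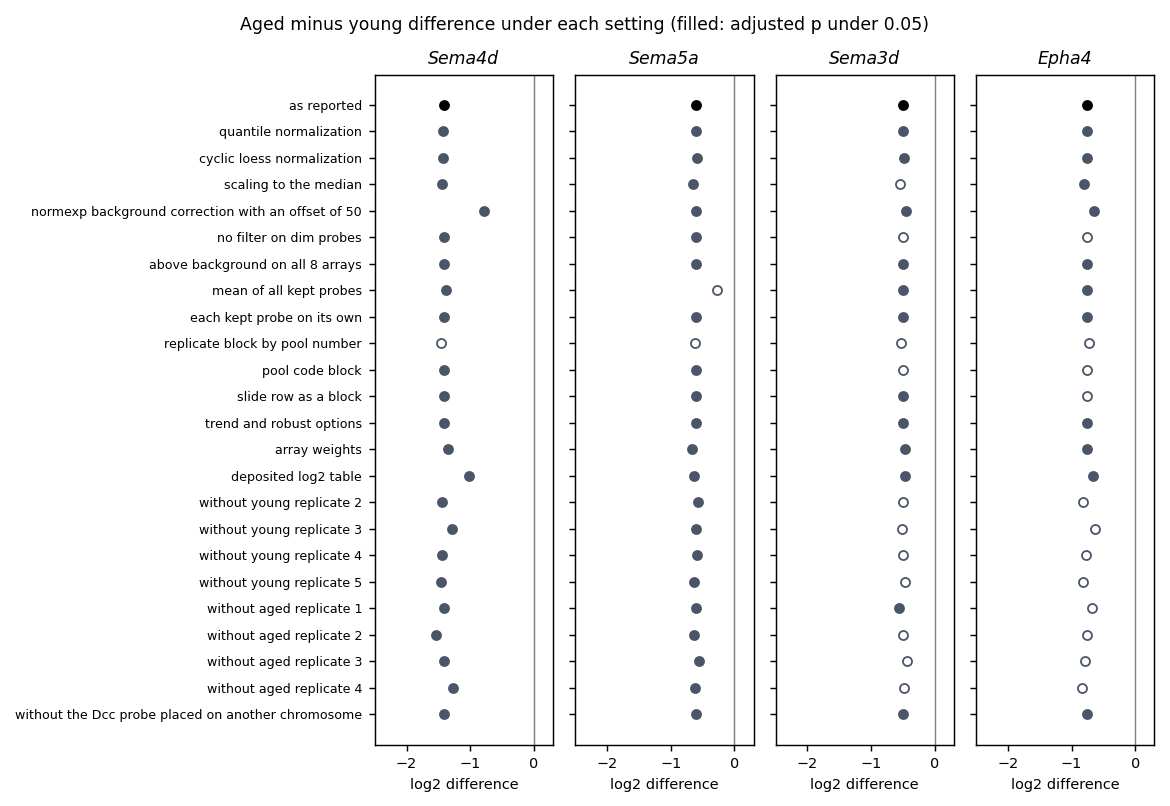
Difference in log2 signal (aged minus young, horizontal axis) of Sema4d, Sema5a, Sema3d and Epha4, the genes that fell with signal above background in both groups, as reported and under each other processing setting or without each pool (rows), filled where the adjusted p was under 0.05. Every point lies below 0, and Sema4d and Sema5a are filled in nearly all rows, Sema4d in 22 of 23 and Sema5a in 21 of 23 beside the reported one.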

How the data were processed

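RNA of sorted cMSCs was measured on 8 Agilent 1-colour arrays, 4 young and 4 aged pools. Deposited for each array was the authors' scanner output, intensities from Agilent Feature Extraction 10.10.1.1. The processed signal they hold has the background subtracted and is not normalized between arrays. A second deposited file holds log2 values that the authors made from these arrays, with a median of 8.12 per array and no centring of genes. The sources used here do not say how they were corrected and scaled. Its columns matched their own arrays best (r of 0.991 to 0.994), and it was used as an alternative. limma is named in the submitters' processing notes.

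Control spots and spots with outlier flags were left out, processed signals were put on a log2 scale and set against the 75th percentile of their array, and repeated spots were averaged. Low signals lie near the background, so folds of dim probes depend on its subtraction. Of 56605 probes, 32994 took their gene name by accession from a RefSeq table of GRCm38.p6, used for names and promoter sequences, and 30824 were kept. Probe positions follow the array files (mm9). The groups were compared in limma 3.58.1 (R 4.3.3, lmFit with eBayes, 6 residual and 2.53 prior degrees of freedom), checked first on simulated data. Sequences were read with Python 3 and pandas.

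Named with values in every pool were the genes that passed, the 3 with the largest absolute difference in each family, and genes above background in 1 group only. The guidance genes, their families and the effector and marker lists were chosen with earlier results of these data known. The genes picked for differing probes and the Dcc probe were noted after values were seen. Alternatives were other normalizations and background correction, other filters and probe rules, blocks, limma options, the deposited table and leaving out each pool. The number of arrays limits the precision.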

Additional observations from a re-analysis of the deposited data

Results flagged for a closer look

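In 10 of 62 groups of 4 pools examined, 1 pool lay far from the other 3 by Dixon's test, which flags about 1 in 20 groups by chance. Examined were the genes named by the rule above and the brightest probes of Epha2, Epha7 and Sema6a. Further kept probes were examined for Epha7, Nrp2, Sema4d, Sema5a and Sema6a only. Genes and probes were picked for large differences or after values were seen, so the count cannot be judged by that rate. Groups of 1 gene and probes of 1 gene are not independent of each other. Young replicate 5 gave 4 of the 10. It was the highest young pool for Ntn1, at 2.95 against 2.57 to 2.63 in the other young pools, for Epha3, at -1.31 against -3.45 to -3.10, and for the brightest Epha7 probe, at 0.990 against -0.19 to -0.05. It was the lowest for the further Sema4d probe, at -3.60 against -3.21 to -3.15. Young replicate 3 was the highest young pool at the brightest Sema4d probe, at -2.04 against -2.59 to -2.53, and for Plxnb3, at -2.49 against -3.41 to -3.34. Young replicate 4 was the lowest at a further Sema5a probe, at -3.55 against -2.67 to -2.59. Among aged pools, replicate 1 was the highest for Ntn1, at 2.48 against 2.42 to 2.43, replicate 2 the highest for Efnb3, at -3.05 against -4.22, and replicate 4 the lowest for Plxna3, at -0.799 against -0.14 to -0.10. The fall of Sema4d was -1.28 without young replicate 3 and -1.46 without young replicate 5.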

How the results depend on the processing

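The number of guidance genes that fell, 6 as reported, was 2 without a filter on dim probes, where 75 guidance genes and 37325 genes in all were tested, 0 with the replicate block by pool number in limma (none rose either; at an unadjusted p under 0.05, 11 fell and 1 rose), 3 with the pool code as a block, and 2 to 5 on leaving out 1 pool, with the lowest count without young replicate 2, young replicate 4 or aged replicate 2. It was 4 to 8 under the other settings, with Sema3g added by array weights and Epha7 and Sema6a when each probe was tested on its own. Of all genes, 0.121% fell without the filter, 0.252% with the pool code block and 0.336% to 0.791% on leaving out 1 pool. Under the other settings 0.618% to 1.87% of all genes or probes tested fell. No guidance gene rose, except Sema4b without aged replicate 2 (0 to 1 on leaving out 1 pool). Groups did not overlap for 13 guidance genes, for 20 with each probe on its own, for 8 in the deposited log2 table and for 13 to 20 on leaving out 1 pool. As reported, 4.05% of all genes had aged pools below and 6.67% above all young pools. These shares were not computed for the alternatives. The Nrp2 difference turned to 0.15 with the mean of all kept probes and to 0.0062 with the replicate block, and the cause was not tested. Over the 19 named genes no other direction turned under any alternative. Correlations of deviations from the group means between pools of the same number were 0.18, -0.17 and -0.27 for replicates 2, 3 and 4. Of 6 pools, 1 correlated best with its own number. So few pools cannot decide whether samples were paired. The pool code, read from the numbers in the labels, joins young replicate 5 with aged replicate 1 (correlation 0.14). Otherwise it joins equal replicate numbers. Under the replicate block by pool number 0.0692% of all genes rose and 0.00989% fell. There young replicate 5 and aged replicate 1 had no partner of their number and did not enter the difference, which rested on replicates 2, 3 and 4. Normexp correction reduced the Sema4d difference by over 1.5 times and ended the calls of Ntng1 and Dscam. Dim probes such as those of Ntng1 and Dscam lie near the background, which limits their folds to lower bounds.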

Other observations

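Some probes of guidance genes that were not kept carried signal in 1 pool alone. In young replicate 5 a probe of Sema5a was at -1.12 and a probe of Dcc at -2.05, against -8.0 to -6.9 for both in the other 7 pools, where neither was well above background. Other pools had such probes too, such as a Robo2 probe at -1.32 in young replicate 3 and a Robo1 probe at -3.40 in aged replicate 4. These are values of single probes with no replicate. At the Sema3d probe of another transcript, which was above background on 3 young and on no aged array, the levels were -4.70, -5.62, -4.69 and -4.23 in young replicates 2 to 5 and -5.82, -6.10, -6.13 and -7.19 in aged replicates 1 to 4, and values without signal above background have no order.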
